A study of Homo sapiens with 16 samples.

Results

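ICAM1, ICAM3, VCAM1, ALCAM, MCAM, NCAM1, BCAM and F11R are 8 immunoglobulin-family genes whose proteins hold leukocytes to other cells or join like cells to each other. They were chosen by name from what is known of the family, with earlier results of these data known. All 8 were among the 20121, 27650 and 21093 genes of the 3 bulk RNA tables and among the 36601 genes of the single-cell matrices. The study grew kidney organoids from the human embryonic stem cell line UM77-2 and asked how their molecules change over culture and under the cytokine tumor necrosis factor α (TNFα). The paper also reports that TNFα raised VCAM1 in organoids of other human stem cell lines. Every group used here rests on 1 line, UM77-2, whose organoids contain nephron-like, stromal and off-target cells.

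The untreated bulk groups were D21, D25 and D29 organoids, with 1 library a day in set 1 and 2 in set 2. In the TNFα set, a separate table, organoids received vehicle control (VC) or 5 ng/ml TNFα for 24 h or 48 h, with 1 library for each combination, and all were collected on D25. The labels give both treatments the same starting day, so when the 24 h treatment began is unclear, and this bears on every value set between 24 h and 48 h. The single-cell groups were D24 organoids with VC or with 5 ng/ml TNFα for 24 h, with 1 library each. The bulk values are deposited log2(CPM + 1) values, where CPM is a gene's read count scaled to the same total of reads in every library. The 3 bulk tables were normalized separately, so levels were compared only within a table. Nothing in the labels says that the paired set 2 libraries came from separate cultures, so their p-values measure the spread between these libraries, which may be technical.

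ICAM1 and VCAM1 are the ligands on the vessel wall and on epithelia that leukocyte integrins bind, LFA-1 and Mac-1 for ICAM1 and VLA-4 for VCAM1. Both genes are textbook targets of NF-κB, the transcription factor that TNFα activates. ICAM3 is a further integrin ligand carried mainly by leukocytes themselves. ALCAM binds itself and the T cell receptor protein CD6, and MCAM is found on endothelial, mural and Schwann cells. NCAM1 joins neurons and marks the mesenchyme of the developing nephron. BCAM is a laminin α5 receptor of podocytes and other epithelia, and F11R (JAM-A) lies in epithelial tight junctions.

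The ICAM1 and VCAM1 promoters are shown because these genes changed most under TNFα and because NF-κB has a known binding motif. The windows are the 250 bases before the RefSeq start on GRCh38.p14, plus strand, at chr19:10270870-10271119 for ICAM1 and chr1:100719492-100719741 for VCAM1. Capitals mark matches to GGANNTTCC or GGGNNTTCC, both searched on both strands.
ICAM1: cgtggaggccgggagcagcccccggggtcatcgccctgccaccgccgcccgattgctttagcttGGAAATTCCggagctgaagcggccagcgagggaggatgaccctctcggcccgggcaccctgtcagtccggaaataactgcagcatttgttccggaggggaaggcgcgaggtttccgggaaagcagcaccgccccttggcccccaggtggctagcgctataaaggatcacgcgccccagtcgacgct
VCAM1: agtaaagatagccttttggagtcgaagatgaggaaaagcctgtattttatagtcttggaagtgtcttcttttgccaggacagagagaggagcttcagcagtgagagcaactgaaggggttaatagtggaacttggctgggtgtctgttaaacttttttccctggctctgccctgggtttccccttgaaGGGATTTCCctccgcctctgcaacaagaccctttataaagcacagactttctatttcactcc
The ICAM1 match, GGAAATTCC, begins 186 bases before the start, and the motif matches there on both strands. The VCAM1 match, GGGATTTCC, begins 62 bases before the start on the gene's strand. Of 34788 distinct promoter windows of this length, 3244 (9.33%) held either motif. The table also lists windows of ICAM3, ALCAM, MCAM and BCAM, and none of these held a match, which says only that these letters are not in those windows.

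Library totals were 25508651 to 29408687 reads in set 1, 19073609 to 30282025 in set 2 and 49948198 to 59246286 in the TNFα set. The least covered of the 8 genes was ICAM3, with 33 to 160 reads a library in set 2 and the TNFα set. The other counts there ran from 71 reads for ICAM1 to 73590 for BCAM. The set 2 D29 replicates stood farthest apart, with a chi-square of 17.4 per gene against 5.01 on D21 and 4.90 on D25. Of the 9 leukocyte markers looked for, PTPRC, TYROBP, LYZ, CD3E, CD68 and MS4A1 were not among the genes of the set 2 or TNFα tables. In the VC and TNFα single-cell libraries, PTPRC had 1 and 4 UMIs, CD3E 1 and 0, and MS4A1 0 in both, where a count of 0 allows up to 3. AIF1 had 2924 and 4084 UMIs, CD68 342 and 219, and the other 4 leukocyte markers 6 to 82. Of the endothelial markers, CDH5 had 59 and 33 UMIs and VWF 14 and 12, while CLDN5 had 10783 and 10268, KDR 875 and 368, EMCN 869 and 754, and the other 4 had 19 to 199.

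Levels of different genes were compared as CPM per kb of exon in set 2 on D21. BCAM was the most abundant, with library values of 225 and 251. ALCAM followed at 34.1 to 38.8 and NCAM1 at 21.0 to 22.1. F11R reached 5.55 to 5.68, VCAM1 3.56 to 4.83 and MCAM 2.74 to 2.87. ICAM1, at 0.794 to 0.956, and ICAM3, at 0.670 to 0.774, were lowest, and none of the neighbours in this order overlapped between libraries. The order depends on the exon lengths used, since in CPM NCAM1 (267 and 281) overlapped ALCAM (278 and 245). Most exon bases of ICAM3 overlap another gene, as given below, so its place is uncertain. After 24 h of TNFα, ICAM1 stood at 57.0 and VCAM1 at 81.8 CPM per kb, above ALCAM (38.6) and NCAM1 (22.5) and below BCAM (179). After 48 h VCAM1 (61.4) was still above ALCAM (36.1) and NCAM1 (24.0), but ICAM1 (28.5) was below ALCAM. BCAM stood at 182.

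TNFα raised ICAM1 and VCAM1 by more than any other member. ICAM1 read 6.20 and 6.52 CPM in the VC libraries at 24 h and 48 h. It read 197 CPM with TNFα at 24 h and 98.3 CPM at 48 h, so the VC and TNFα libraries lay far apart. The log2 difference was 4.78 at 24 h and 3.72 at 48 h. Over both times the log2 fold change was 4.25 (standard error 0.15), 19.0-fold on the CPM + 1 scale, with an adjusted p of 1.42e-12 in limma, and 2 of 21093 genes had a larger rise. VCAM1 read 19.3 and 28.2 CPM with VC, against 495 CPM at 24 h and 371 CPM at 48 h with TNFα. Its log2 differences were 4.61 and 3.67, and its log2 fold change over both times was 4.14 (standard error 0.13, adjusted p 3.25e-13 in limma), with 4 genes above it. For both genes the difference was smaller at 48 h than at 24 h, and with 1 library per treatment and time this cannot be tested. With no replicates at a time, 1.28% of genes were higher by at least 1 on the log2 scale at 24 h and 1.07% at 48 h. The test has terms for time and treatment, which leave 1 residual degree of freedom, and borrows the spread across genes. In it the 2 times stand in for replicates of the treatment, so its p-values measure no spread between replicate libraries. The VC libraries of 24 h and 48 h themselves differed by 0.52 on the log2 scale for VCAM1 and by 0.06 for ICAM1.

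**Figure D1:**
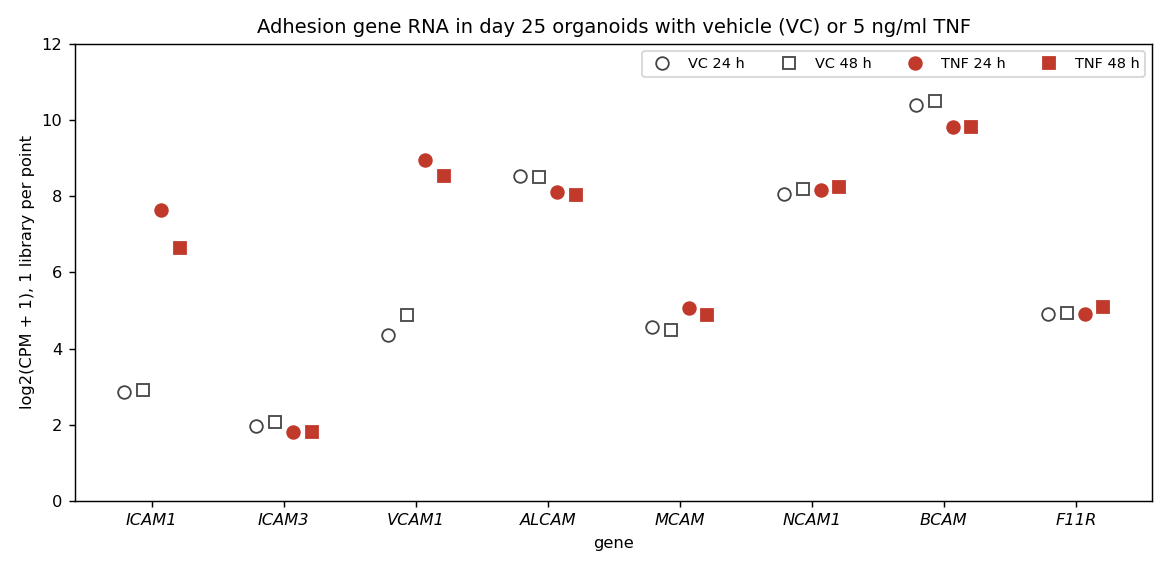
Each point is 1 D25 bulk library, with the gene on the x axis and log2(CPM + 1), not scaled for gene length, on the y axis; open symbols are VC, filled symbols TNFα, circles 24 h and squares 48 h. ICAM1 goes from 2.85 and 2.91 with VC to 7.63 and 6.63 with TNFα, and VCAM1 from 4.34 and 4.87 to 8.95 and 8.54, while the other 6 genes move by less than 1.

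The remaining members moved by less than 1 on the log2 scale. BCAM read 1355 and 1462 CPM with VC and 896 and 910 CPM with TNFα, with no overlap. It fell by 0.64 on the log2 scale (standard error 0.07, limma adjusted p 1.22e-06), and 467 of 21093 genes fell further. ALCAM read 371 and 361 CPM with VC and 277 and 259.5 CPM with TNFα, also with no overlap. ALCAM fell by 0.45 (standard error 0.06, limma adjusted p 3.04e-05), and 1003 genes fell further. MCAM was higher in both TNFα libraries, 32.4 and 28.2 CPM, than in both VC libraries, 22.7 and 21.5 CPM. Its log2 fold change was 0.44 (standard error 0.08, limma adjusted p 0.000820), and 907 genes rose further. NCAM1 (0.09, adjusted p 0.374), F11R (0.09, adjusted p 0.488) and ICAM3 (-0.21, adjusted p 0.284) did not pass the limma test. NCAM1 lay between 265 and 304 CPM in all 4 libraries, ICAM3 between 2.51 and 3.21 CPM and F11R between 28.9 and 33.3 CPM. The called members were thus 3 higher and 2 lower, where 8.42% and 10.8% of all 21093 genes were called higher and lower.

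Without the time term and with all 4 libraries, 4 members stayed called and MCAM did not (limma adjusted p 0.0688). With 1 library left out as well, MCAM had an adjusted p of 0.201 without VC 24 h, 0.319 without TNFα 24 h, 0.281 without VC 48 h and 0.0968 without TNFα 48 h in limma. ALCAM had 0.0653, 0.0544 and 0.109 without VC 24 h, TNFα 24 h and TNFα 48 h. BCAM had 0.0586 without TNFα 24 h and 0.0532 without TNFα 48 h. ICAM1 and VCAM1 were called under all 11 alternatives, at adjusted p of at most 0.000734 and 0.000268.

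Podocyte and proximal tubule markers were lower under TNFα, as BCAM and ALCAM were, but stromal markers were not. All 10 podocyte markers and all 10 proximal tubule markers were called lower under TNFα, with median log2 changes of -0.84 and -1.01 against -0.03 for all genes. Of 9 measured distal tubule or loop of Henle markers 3 were called lower, with a median of -0.23. The summed podocyte markers read 7038 and 6536 CPM with VC and 4191 and 3074 CPM with TNFα. Of 10 stromal markers 4 were called higher and 2 lower, with a median of 0.21. Their sum read 6584 and 8108 CPM with VC and 8236 and 8597 CPM with TNFα. In the VC single cells described below, ALCAM was highest in podocyte-like cells, followed by stromal-like cells. Fewer cells of a type and less RNA per cell cannot be told apart in bulk RNA. Of 8 mural markers 7 were called higher, and their sum went from 376 and 360 CPM to 612 and 456 CPM. In the single cells described below no class was named mural, and MCAM was highest among the named classes in the neural progenitor or glial-like class. Of 8 measured markers of that class, 4 were called higher and 1 lower in bulk (median 0.24). The part of these cells in the members' changes was not tested.

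Of 9 measured TNFα response genes 8 were called higher, with a median log2 change of 2.47. CCL2 (4.07), BIRC3 (3.54) and TNFAIP3 (3.29) rose most. Of 15 measured leukocyte adhesion receptors and junctional molecules other than the members, 6 were called higher and 3 lower. The junctional protein gene JAM2 (1.35), the ICAM family gene ICAM5 (1.12) and MADCAM1 (1.06), a ligand of gut-homing leukocytes, rose most. PECAM1 (-0.57), CD34 (-0.41) and ESAM (-0.25), which endothelial cells carry, were called lower. Their medians were 0.16 for the list and -0.03 for all genes, of which 8.42% were called higher and 10.8% lower.

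Among 13 measured integrin partners and other ligands, 5 were called higher and 1 lower, with a median of 0.17. They include LGALS3 (1.20), which encodes the MCAM ligand galectin-3, laminin α4 (LAMA4, 0.53) and ITGA4 (0.52), the α chain of the VCAM1 receptor. EZR (-0.39), which links membrane proteins to actin, was the one called lower. Of 26 other immunoglobulin-family adhesion genes 8 were called higher, led by CADM1 (1.22), CNTN2 (0.84) and L1CAM (0.82), and 3 lower, which were NFASC (-0.56), OPCML (-0.49) and CNTN1 (-0.41). The median of this list was 0.01. For all of these lists the share over all genes was 8.42% called higher and 10.8% called lower. Of the 6 enzymes that shed the members or polysialylate NCAM1, the protease gene MMP9 was called, at a log2 fold change of 4.67 (limma adjusted p 4.00e-15).

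Over culture, 5 of the 8 members rose and 1 fell from D21 to D29. In set 2, 10.0% of 27650 genes were called higher and 8.33% lower between these days, and the median of all genes was -0.02. ICAM1 read 3.30 and 2.74 CPM in the D21 libraries, 6.89 and 5.86 at D25, then 8.60 and 13.5 at D29. Its log2 fold change from D21 to D29 was 1.56 (standard error 0.21, limma adjusted p 0.00205). VCAM1 read 21.6 and 29.2 CPM in the D21 libraries, 35.4 and 30.1 at D25, then 49.5 and 61.0 at D29, with a log2 fold change of 1.10 (standard error 0.16, limma adjusted p 0.00263). The 3 days did not overlap for either gene.

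NCAM1 and ALCAM rose from higher levels. NCAM1 read 267 and 281 CPM in the D21 libraries, 425 and 439.7 at D25, then 515 and 671 at D29. The change from D21 to D29 was 1.10 (standard error 0.12, limma adjusted p 0.000785). ALCAM read 278 and 245 CPM in the D21 libraries, 457 and 426 at D25, then 509 and 449.5 at D29, so that D29 overlapped D25 but not D21. It rose by 0.87 (standard error 0.10, limma adjusted p 0.000851). MCAM read 20.4 and 21.3 CPM in the D21 libraries, 32.1 and 37.5 at D25, then 32.9 and 35.7 at D29, which again overlapped D25. Its rise was 0.69 (standard error 0.10, limma adjusted p 0.00236).

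BCAM was the member that fell. It read 1126 and 1254 CPM in the D21 libraries, 862 and 914 at D25, then 602 and 429 at D29, with no overlap between days. It fell by 1.22 from D21 to D29 (standard error 0.16, limma adjusted p 0.00150), and 223 of 27650 genes fell further. ICAM3 (-0.18, adjusted p 0.471) and F11R (-0.04, adjusted p 0.830) did not pass the limma test, and lay between 1.60 and 2.16 CPM and between 26.7 and 32.2 CPM in the 6 libraries. The 6 calls from D21 to D29 held under all 13 alternatives, with the highest adjusted p of 0.0279 for MCAM.

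**Figure D2:**
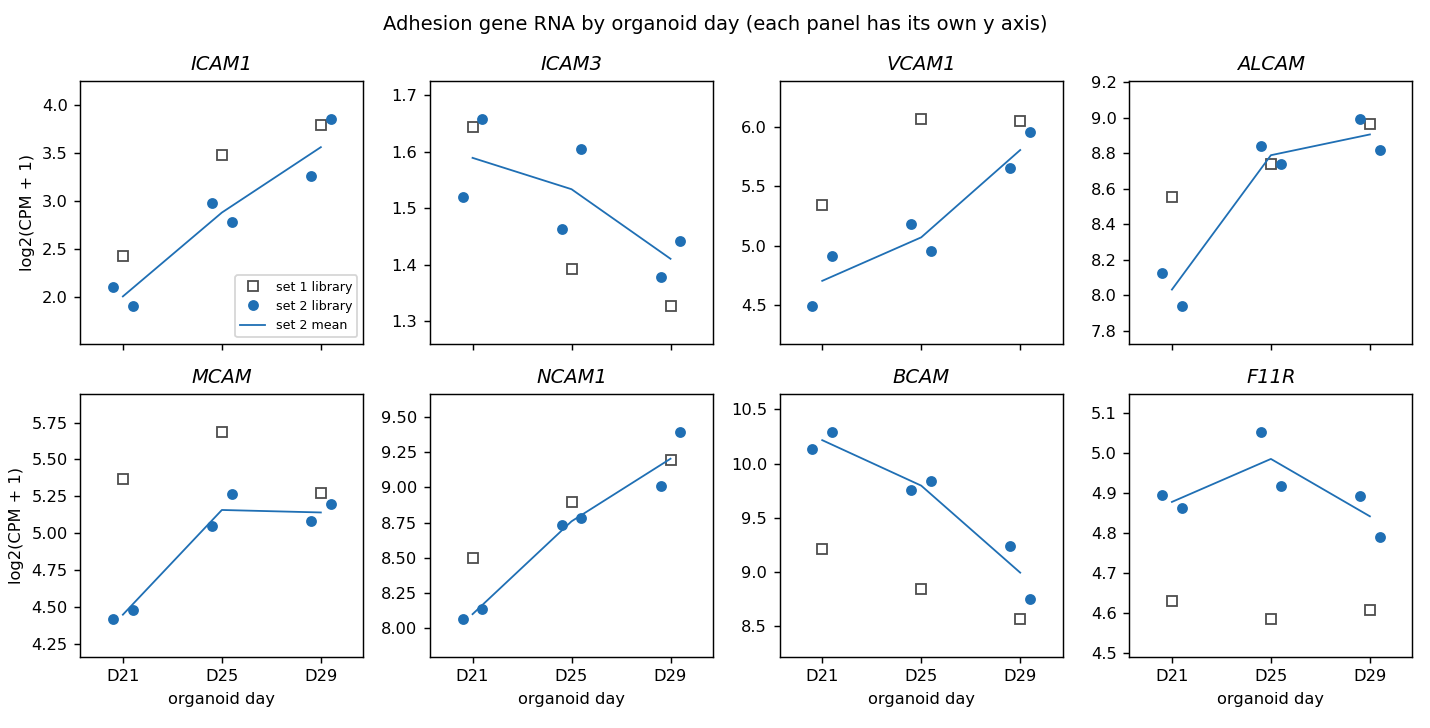
Each panel shows 1 gene, with the organoid day on the x axis and log2(CPM + 1) on the y axis, which differs between panels; filled circles are the set 2 libraries, the line their mean, and open squares the set 1 libraries. BCAM descends from 10.1 and 10.3 on D21 to 9.24 and 8.75 on D29 in set 2, while ICAM1, VCAM1, ALCAM, MCAM and NCAM1 end above their D21 level.

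The steps between neighbouring days carried fewer calls. From D21 to D25, ALCAM (0.76, adjusted p 0.00605), MCAM (0.71, adjusted p 0.00770) and NCAM1 (0.66, adjusted p 0.0226) were called higher by limma, where 3.39% of genes were called higher. ICAM1 changed by 0.88 (adjusted p 0.0595 in limma). The count of 3 members fell to 1 without D21 replicate 1 or D25 replicate 1, to 0 without D21 replicate 2 or D25 replicate 2, and rose to 5 without either D29 replicate. From D25 to D29, BCAM was called lower at -0.80 (standard error 0.16, limma adjusted p 0.0479), where 0.825% of genes were. VCAM1 differed by 0.73 and did not pass the limma test (adjusted p 0.0656). That BCAM call was lost without each of D21 replicate 1 (limma adjusted p 0.106), D21 replicate 2 (0.106), D25 replicate 1 (0.235), D25 replicate 2 (0.239) and D29 replicate 2 (0.0831).

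Set 1, without replicates, had the same sign from D21 to D29 for every member but MCAM. ICAM1 went from 4.37 to 10.2 and 12.9 CPM over the 3 days, a log2 difference of 1.37, where 3.09% of 20121 genes were higher by at least 1. VCAM1 (0.70), NCAM1 (0.70) and ALCAM (0.41) were higher on D29 and BCAM lower (-0.65). ICAM3 differed by -0.32 and F11R by -0.02. MCAM read 40.2, 50.5 and 37.6 CPM, and so ended 0.10 lower on the log2 scale in set 1.

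Markers of other cells moved with these changes. In set 2, 8 of 10 stromal markers were called higher from D21 to D29 (median 2.02), and their sum went from 4228 to 4828 CPM on D21 to 14190 to 17736 CPM on D29. Of 8 mural markers 7 were called higher and 1 lower (median 2.18), with a sum of 190.0 to 226 CPM on D21 and 541 to 572 CPM on D29. Of 10 neuronal markers 9 were called higher (median 1.17), with a sum of 552 to 587 CPM on D21 and 991 to 1478 CPM on D29. Of 10 neural progenitor or glial markers 5 were called higher (median 0.39). Their sum was 126 to 154 CPM on D21 and 163 to 224 CPM on D29. Of the podocyte markers 5 of 10 were called lower (median -0.99), and their sum went from 11253 to 11715 CPM to 3824 to 8088 CPM. Proximal tubule markers were called lower for 8 of 10 (median -1.03). In set 1 the neuronal sum instead fell, from 1525 CPM on D21 to 1295 CPM on D29. The neural progenitor or glial sum there read 330 CPM on D21, 353 on D25 and 235 on D29. MCAM read 40.2, 50.5 and 37.6 CPM on these days of set 1, while the mural sum rose from 290 CPM on D21 to 537 on D29. The stromal, mural, podocyte and proximal tubule sums changed there in the same direction as in set 2. The part of these cell types in the members' changes was not tested.

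**Figure D3:**
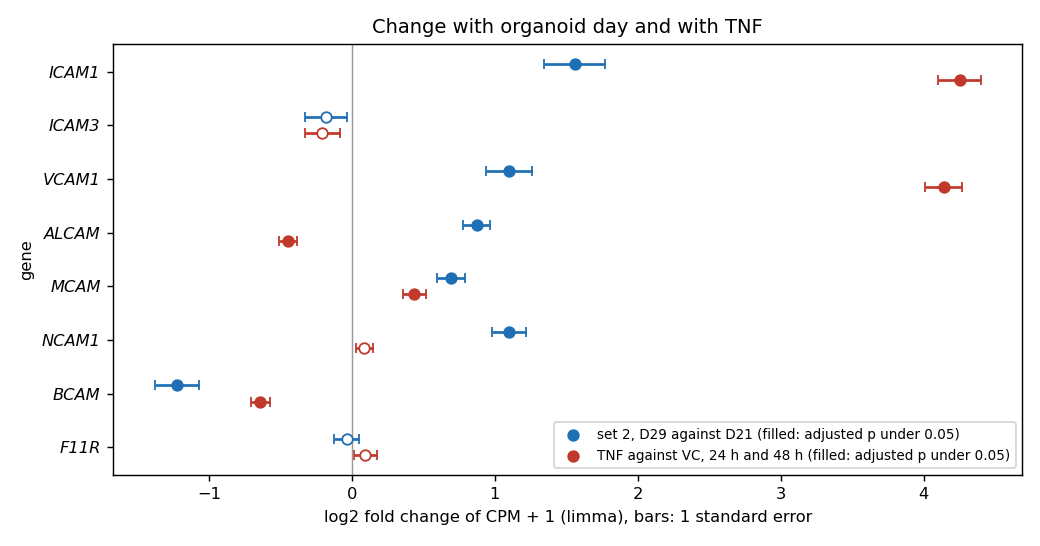
Points are log2 fold changes of CPM + 1 from limma on the x axis, with bars of 1 standard error, for the 8 genes on the y axis; blue is D29 against D21 in set 2, red TNFα against VC over 24 h and 48 h, and filled points have an adjusted p under 0.05. ICAM1, at 1.56 and 4.25, and VCAM1, at 1.10 and 4.14, rose in both, ALCAM rose by 0.87 with day and fell by 0.45 with TNFα, and BCAM fell in both.

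Of 15 leukocyte adhesion receptors and junctional molecules measured in set 2, 9 were called higher from D21 to D29, led by JAM2 (1.63), PECAM1 (1.38) and CD34 (1.38), and ESAM (-1.02) was called lower. The list median was 0.50. For this and the following set 2 lists, the share over all genes was 10.0% called higher and 8.33% called lower. In set 1, which has no test, JAM2 (1.02) was also higher on D29 and ESAM (-0.83) lower. PECAM1 (-0.25) and CD34 (-0.35) were lower there, opposite to set 2. In set 2, of the 9 endothelial markers 5 were called higher and 2 lower, with a median of 0.89. Their sum, which the most abundant markers dominate, nevertheless fell, from 138 to 160 CPM on D21 to 78.1 to 91.1 CPM on D29. Their part in these changes was not tested. Of 27 other immunoglobulin-family adhesion genes 14 were called higher and 3 lower, with a median of 0.41. CADM3 (1.92), NCAM2 (1.77) and NTM (1.55), which neurons carry, rose most, and KIRREL1 (-0.80), a slit diaphragm gene, fell most, followed by NECTIN2 (-0.45) and CADM1 (-0.34). Of 15 integrin partners and ligands 5 were called higher and 3 lower (median 0.03). ITGA9 (1.18), which pairs with ITGB1 to bind VCAM1, LGALS3 (1.03) and ITGA4 (0.99) rose most. LAMA5 (-0.83), the laminin chain that BCAM binds, LAMA4 (-0.80) and EZR (-0.63) fell. The sialyltransferase genes ST8SIA2 (0.83) and ST8SIA4 (0.67), which polysialylate NCAM1, and MMP9 (1.30) were the 3 of 6 enzymes called, all higher.

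Single cells give the cell classes that carry these RNAs. The VC library held 11906 cells with more than 500 genes (median 6359 UMIs) and the TNFα library 23160 (median 2599, none under 1514), and they shared 74 barcodes among the cells kept. Clustering without the 8 genes and the listed adhesion genes gave 14 clusters, of which 12 were named from marker genes in 8 classes and 2 stayed unnamed. One unnamed cluster, led by GJA4 and SOX17, held 533 VC cells (median 987 UMIs) and 1793 TNFα cells (median 1786). Its 10 leading genes also included ACTA2 and ACTG2, which are on the mural marker list. The other, led by C1orf56 and PAQR7, held 234 VC and 685 TNFα cells. Cells of both enter only the values over all cells, so the classes below do not cover them. The podocyte-like class had 10 of 10 of its markers raised, the stromal-like class 9 of 10 and the proximal tubule-like class 7 of 10. Values are the UMIs of a gene over all UMIs of a class, as CPM, with exact 95% Poisson intervals. With 1 library per condition there is no test, and intervals cover counting error only.

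In VC cells, BCAM was highest in podocyte-like cells, at 841 CPM (827 to 857), followed by proximal tubule-like cells at 298 (290 to 306) and gonadal or coelomic epithelium-like cells at 157 (147 to 167). All other classes lay at 18.9 to 63.6 CPM. ALCAM was also highest in podocyte-like cells, at 396 CPM (386 to 407), with stromal-like cells at 312 (303 to 322) and the lowest class, skeletal muscle-like cells, at 37.4. F11R peaked in proximal tubule-like cells at 27.7 CPM (25.4 to 30.2), above gonadal or coelomic epithelium-like (12.7) and podocyte-like cells (11.6), which did not differ beyond their intervals. ICAM3 was also highest in proximal tubule-like cells, at 12.8 CPM (11.3 to 14.6), and lay at 2.82 to 7.59 CPM elsewhere. These 4 genes thus peaked in nephron epithelium.

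NCAM1 reached 314 CPM (305 to 324) in neuronal-like cells and 270 (262 to 279) in stromal-like cells, against 36.2 in podocyte-like and 35.7 in proximal tubule-like cells. The 2 neuronal-like clusters differed: the one led by CRABP1 and POU3F2 held 547 CPM (527 to 568) and the one led by HMX1 and PRPH 175 (166 to 184). Among the named classes, MCAM was highest in the neural progenitor or glial-like class, at 59.9 CPM (56.0 to 63.9), where no other passed 11.3 CPM. This ranking leaves out the unnamed clusters, of which 1 had mural markers among its leading genes. Within that class the cluster led by S100B, a gene of glia, held 91.6 CPM (85.6 to 97.9), and the cluster led by MSX1 and DKK1 4.25 (2.69 to 6.37). VCAM1 was highest in stromal-like cells at 81.8 CPM (77.1 to 86.7), then in proliferating-like (32.5) and skeletal muscle-like cells (30.6), which overlapped in their intervals. ICAM1 was scarce everywhere: 54 UMIs gave 3.90 CPM (2.93 to 5.09) in stromal-like cells, and no other class passed 1.34 CPM. In gonadal or coelomic epithelium-like cells there was 1 ICAM1 UMI.

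**Figure D4:**
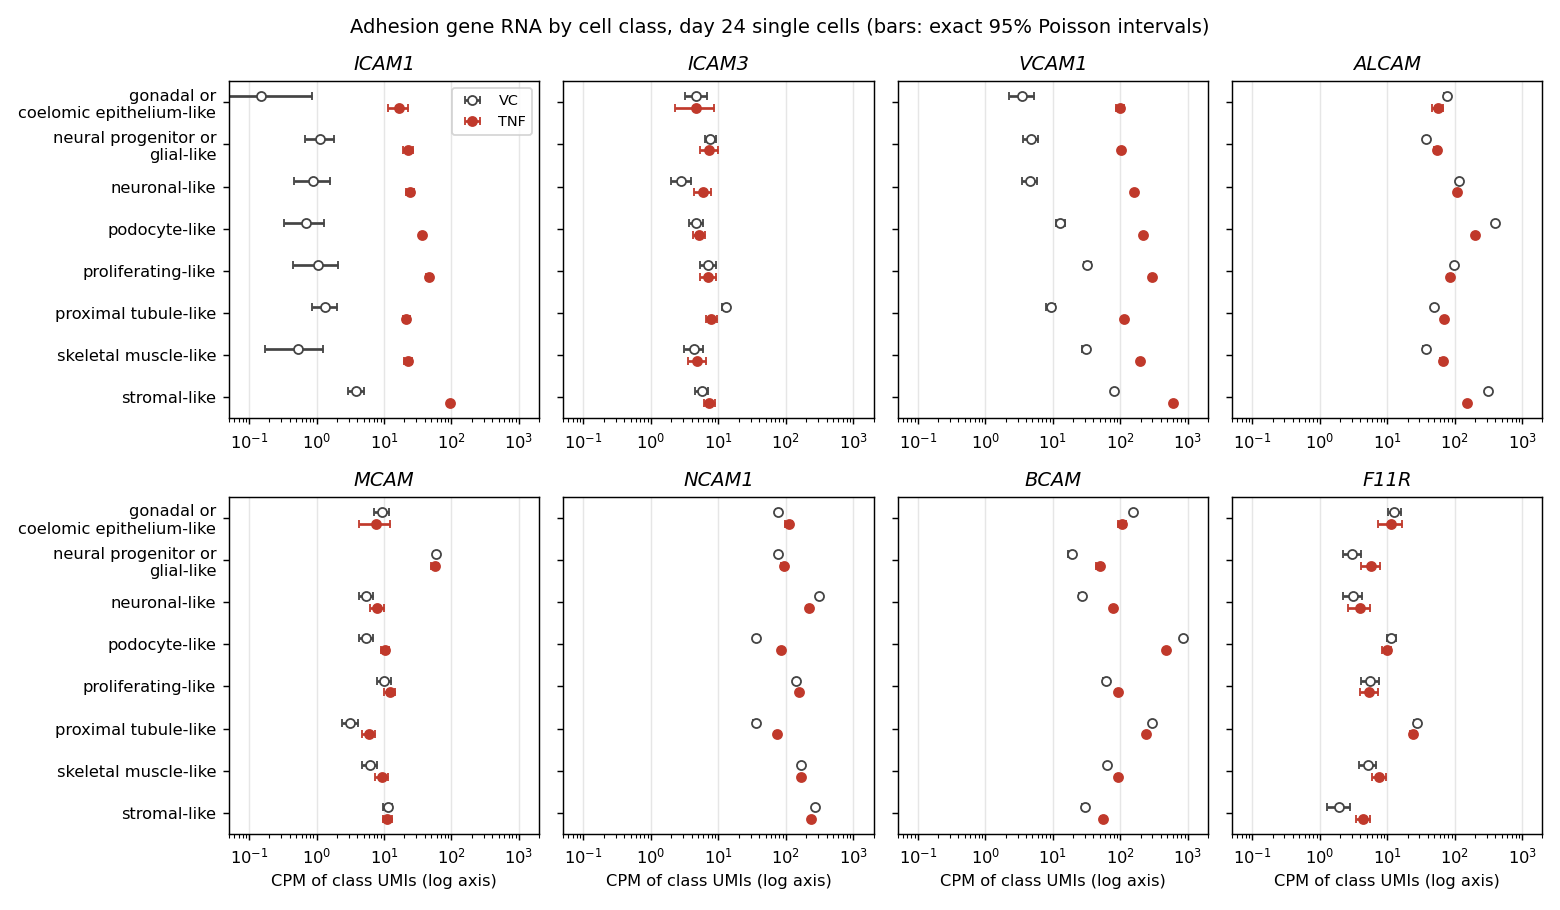
Each panel shows 1 gene, with the class on the y axis and CPM of the UMIs of the class on a log x axis; open points are the VC library, red points the TNFα library, and bars exact 95% Poisson intervals. ICAM1 and VCAM1 are shifted to the right in every class with TNFα, MCAM is highest in the neural progenitor or glial-like class, with 59.9 and 56.1 CPM, and the classes lie closer together for BCAM and ALCAM in the TNFα library.

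With TNFα, ICAM1 and VCAM1 were higher in every class with at least 50 UMIs in both libraries together. VCAM1 in stromal-like cells went from 81.8 to 601 CPM, a ratio of 7.35 (6.91 to 7.82), and in podocyte-like cells from 12.9 to 219, a ratio of 16.9 (14.6 to 19.7). In proximal tubule-like cells it went from 9.35 to 114 CPM, a ratio of 12.2 (10.4 to 14.4). ICAM1 in stromal-like cells went from 3.90 to 96.0 CPM, a ratio of 24.6 (18.8 to 32.9). Its ratios in 7 classes ran from 16.0 to 52.7, and those of VCAM1 in 8 classes from 6.33 to 35.4. Without alignment of the libraries all 15 of these ratios stayed above 2, at 9.05 and above for ICAM1 and 4.15 and above for VCAM1, both lowest in proximal tubule-like cells, where the aligned ratios were 16.0 and 12.2. Over all cells the ratio was 30.1 (25.4 to 35.8) for ICAM1 and 11.7 (11.2 to 12.2) for VCAM1.

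RNA of 1 class was found in the others to a larger extent in the TNFα library. There, STMN2, a gene of neurons, stood at a median of 3.79% of its neuronal-like level in the other classes, against 1.21% in the VC library. Likewise, for the 10 stromal markers in neuronal-like cells, their level was a median of 32.7% of the stromal-like level (28.2 to 44.3) with TNFα and 6.13% with VC. VCAM1 in the same neuronal-like cells was at 26.7% of its stromal-like level with TNFα and ICAM1 at 25.6%, below all 10 markers. In proximal tubule-like cells with TNFα, VCAM1 was at 19.0% and ICAM1 at 22.4%, where the markers had a median of 19.9% (18.8 to 31.3). In podocyte-like cells with TNFα, VCAM1 was at 36.5% and ICAM1 at 38.2%, above 7 of the 10 markers, whose median was 31.1% (19.8 to 85.1). In the TNFα library both genes lay below the highest marker in all 7 classes other than stromal-like cells. In the VC library ICAM1, at low counts, lay above all 10 markers in neuronal-like (22.9%) and proximal tubule-like cells (34.4%). It lay below the highest marker in the other classes, as VCAM1 did in every class. The part of free RNA or mixed droplets in the ICAM1 and VCAM1 levels of these classes was not tested.

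**Figure D5:**
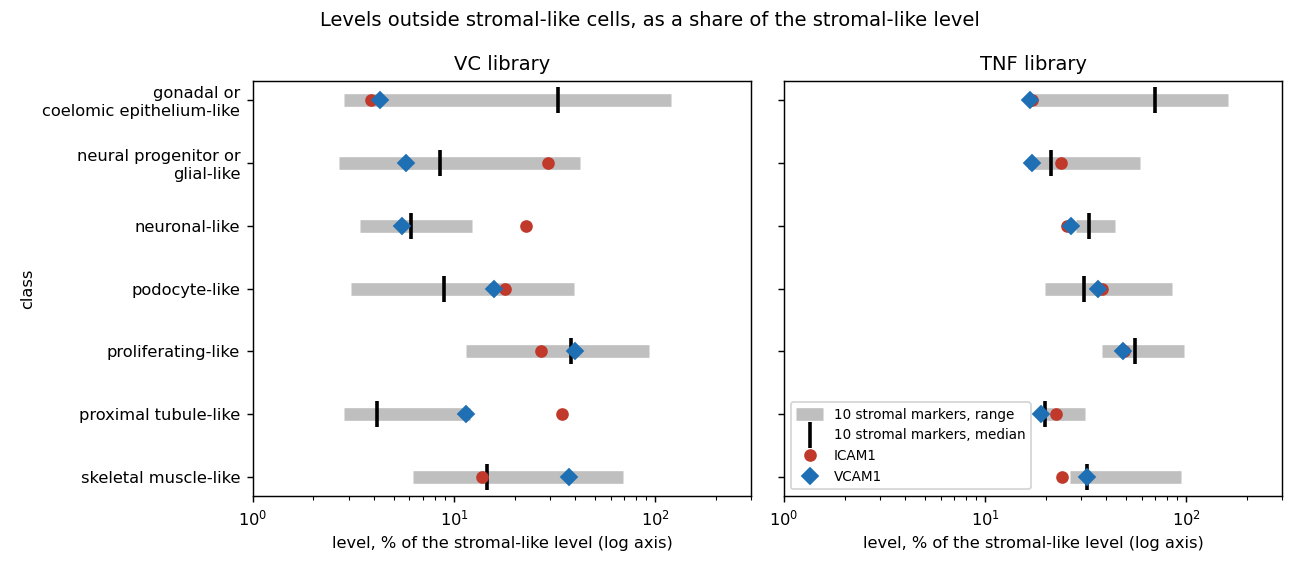
The x axis gives the level in a class as a percent of the level in stromal-like cells on a log axis, the y axis the class, with the VC library on the left and the TNFα library on the right; grey bars span 10 stromal markers, black ticks are their median, circles are ICAM1 and diamonds VCAM1. With TNFα both genes lie at 16.6% to 48.7% of the stromal-like level, within or just below the span of the markers.

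The share of stromal-like cells with a VCAM1 UMI was 21.0% with VC and 65.0% with TNFα, or 8.54% and 47.4% after each cell was thinned to 1500 UMIs. In neuronal-like cells it was 2.14% and 35.0%, or 0.64% and 24.0% after thinning. Whether these cells make VCAM1 themselves was not tested. The median depth of the neuronal-like clusters was 9195 and 5254 UMIs with VC and 2663 and 2139 with TNFα, against 4812 and 2750 in stromal-like cells.

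Of 62 pairs of a member and a class with at least 50 UMIs, 21 were at least 2-fold higher with TNFα and 1 at least 2-fold lower, where 4.26% and 1.73% of 107057 pairs of any gene and class were. BCAM, ALCAM, NCAM1 and ICAM3 had intervals of the ratio above 1 in some classes and below 1 in others. MCAM had an interval above 1 in 4 classes and F11R in 3, with 0 below 1 for both. BCAM went from 841 to 472 CPM in podocyte-like cells (ratio 0.56, 0.55 to 0.58), but from 26.9 to 77.7 in neuronal-like cells (2.89, 2.54 to 3.30) and from 18.9 to 49.6 in the glial or neural progenitor class (2.62, 2.22 to 3.08). ALCAM went to 202 CPM in podocyte-like cells (ratio 0.51, 0.49 to 0.53) and to 155 in stromal-like cells (0.50, 0.47 to 0.52), and from 37.4 to 66.8 in skeletal muscle-like cells (1.79, 1.57 to 2.05). NCAM1 went from 36.2 to 83.9 CPM in podocyte-like cells (ratio 2.32, with an interval that ends at 2.57) and from 314 to 217 in neuronal-like cells (0.69, 0.65 to 0.73). In these examples the classes with a high VC level were lower, and those with a low VC level higher, in the TNFα library. Whether RNA shared between classes, given above for STMN2 and the stromal markers, has a part in these ratios was not tested. When cells were clustered without aligning the libraries, none of the 7 called pairs outside ICAM1 and VCAM1 stayed past 2-fold. BCAM then had ratios of 1.69 in neuronal-like and 1.61 in neural progenitor or glial-like cells, ALCAM 0.52 in stromal-like cells, and NCAM1 0.98 in podocyte-like and 0.92 in proximal tubule-like cells, which turned its direction. F11R in stromal-like cells went from a ratio of 2.27 to 1.59, and ICAM3 in neuronal-like cells from 2.07 to 1.39.

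Most skeletal muscle-like cells of the VC library (946) were in a cluster led by MYF6 and MYOD1 and most of the TNFα library (1394) in one led by MYLPF and MYL1, so this class does not hold like cells in the 2 libraries. MCAM in the neural progenitor or glial-like class was at 59.9 and 56.1 CPM, with a ratio of 0.94 whose interval, 0.83 to 1.06, includes no change. F11R in proximal tubule-like cells was at 27.7 and 24.4 CPM (0.88, 0.77 to 1.01). ICAM3 in the same cells was at 12.8 and 7.86 CPM (0.61, 0.49 to 0.77), and over all cells it was at 6.73 and 6.71 CPM (interval of the ratio 0.89 to 1.11).

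The genes with the pattern most like each member were found by Pearson's r of log2(CPM + 10) over the 8 classes of both libraries, 16 points that share 2 libraries, among 15819 genes with at least 200 UMIs. For ICAM1 they were CXCL10 (r = 0.988), IL3RA (0.985) and TNFAIP3 (0.982), and for VCAM1 CRISPLD2 (0.958), JUNB (0.952) and MT-ATP8 (0.948). BCAM was most like SPINT2 (0.989), HSBP1L1 (0.982) and ARHGAP29 (0.981), and F11R most like HOOK1 (0.984), DUSP9 (0.967) and CBLC (0.965). MCAM was most like GDF7 (0.969), CXCL13 (0.967) and EGFL8 (0.966), and the genes like NCAM1 included ACTR2 (0.940) and CTIF (0.938). ALCAM was closest to PLEKHH3 (0.949), SEC62 (0.928) and MMP14 (0.927). ICAM3, whose counts are low, was closest to TPMT (0.887), NQO2 (0.879) and ASPH (0.869).

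Bulk counts of some members may be affected where their exons overlap other genes. No source used here gives the strand setting of the counting or how reads that fall on more than 1 gene were treated. In GENCODE 44, 2101 of the 2788 exon bases of ICAM3 (ENSG00000076662, chromosome 19, 10333776 to 10339661) overlap a long noncoding RNA on the other strand, so its bulk values are uncertain. ICAM1 (ENSG00000090339, chromosome 19, 10271093 to 10286615) shares 815 of 3448 bases with ICAM4-AS1, and MCAM 509 of 7422 with CBL, on the other strand. NCAM1 shares 613 of 12695 bases with NCAM1-AS1 on the other strand, and fewer with other noncoding RNAs. F11R (ENSG00000158769, chromosome 1, 160995211 to 161021343) shares 1853 of 5061 bases with a second gene model on its own strand. VCAM1 (ENSG00000162692, chromosome 1, 100719742 to 100739045), ALCAM and BCAM share none.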

How the data were processed

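The authors aligned bulk reads to GRCh38 with STAR 2.7.8a, used HTSeq to count them by gene, and applied voom before the log2 tables were deposited. By their values the deposited log2 columns hold log2(CPM + 1) after 0.5 was added to every count, and whole reads came back for 100% of values (within 0.001 reads). The tables hold only part of the annotated genes, and no source used here states the filter. The single-cell UMI counts were deposited as filtered matrices without normalization, and their genome build is not stated here because the sources differ. Another D25 control single-cell sample was not analysed here. Gene positions are those of GENCODE 44, matched by Ensembl identifier.

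The 8 genes, the related gene lists and the marker lists were chosen with earlier results of these data known. All 8 members are named, and of a list at most the 3 called genes with the largest change in each direction. Bulk tests used limma 3.58.1 under R 4.3.3 (eBayes with a trend on the mean, two-sided, Benjamini-Hochberg over all genes, called under 0.05), with 1 mean per day in set 2 and with time and treatment in the TNFα set. Alternatives used edgeR 4.0.16 and DESeq2 1.42.0 on the recovered reads, other scalings and filters, and each library left out. Set 1 has no test. A few genes that the naming rule gives are not reported here.

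Cells were scaled to 10000 UMIs. The 2963 variable genes, 30 components, a Harmony alignment rewritten in numpy 2.4.6, 20 neighbours and leidenalg 0.10.2 at resolution 0.25 gave the clusters. A cluster was named from at least 3 markers with 20 CPM and a log2 fold of 1, and by those among its 10 leading genes. Scrublet in scanpy 1.11.5 marked 0 cells in either library, so it did not separate doublets, and cells were kept. In simulated data limma called 196 of 200 changed and 3 unchanged genes for D29 against D21 in set 2, and 198 of 200 and 9 for TNFα. The planted changes were all at least 1 on the log2 scale, in well covered genes, and did not differ between times. The simulated spread was a fixed setting, not that of these libraries. These rates thus do not carry over to smaller changes, such as those of BCAM, ALCAM and MCAM under TNFα. Library totals were at least 19073609 reads, so a count of a few reads carries a large counting error.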

Additional observations from a re-analysis of the deposited data

Results flagged for a closer look

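Several members moved in opposite directions in 2 groups under the same contrast, and none of these differences was tested. From D21 to D29 MCAM differed by -0.10 on the log2 scale in set 1 and by 0.69 in set 2. From D25 to D29 VCAM1 differed by -0.022 in set 1 and by 0.73 in set 2. F11R differed by -0.047 and 0.11 from D21 to D25, and by 0.023 and -0.14 from D25 to D29, in set 1 and set 2. In single cells the ratio of TNFα to VC for BCAM was 0.56 in podocyte-like and 2.89 in neuronal-like cells, and for ALCAM 0.50 in stromal-like and 1.79 in skeletal muscle-like cells. For NCAM1 it was 2.32 in podocyte-like and 0.69 in neuronal-like cells, and for ICAM3 0.61 in proximal tubule-like and 2.07 in neuronal-like cells.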

How the results depend on the processing

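From D21 to D29 the 6 members called in set 2 were 6 under each of 13 alternatives, while the count of all genes called ran from 2358 to 5417 with 1 library left out, against 5081. Median centring moved the median of all genes from -0.02 to -0.12 and the share of calls that were higher from 54.7% to 34%, and from 63.1% to 43.1% for D25 against D21. For D25 against D21 (3 members, 1486 genes) DESeq2 called 5 members, median centring called 2252 genes, and leaving out a library gave 0 to 5 members and 241 to 2231 genes. For D29 against D25 (1 member, 574 genes) edgeR called 3 members and 1336 genes, DESeq2 4 and 1288, median centring 2 and 1233, a mean log2 value of at least 1 gave 2 and 1122, values without the added 1 CPM gave 2 members, and limma without the trend 0 and 209. Leaving out a library gave 0 to 4 members and 0 to 2014 genes. The 0 genes came in limma without either D25 replicate, where 3383 and 3715 genes had an unadjusted p under 0.05. With the replicate block D29 against D25 gave 3 members and 1118 genes, and D29 against D21 6 and 6056. The replicate numbers, Org1 and Org2 in the titles of each day, were not taken as a pairing. The correlation of deviations was 0.143 for D21 and D25, 0.075 for D21 and D29 and 0.270 for D25 and D29. These low positive values do not settle whether the libraries were paired. For TNFα (5 members, 4061 genes) DESeq2 called 2184 genes, treatment without the time term 1310 genes and 4 members, and a library left out as well 2 to 4 members and 638 to 738 genes (727 without TNFα 24 h, 726 without VC 48 h). The cause of these shifts was not tested.

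Signs turned with a library left out, in values that passed the limma test in no such fit. F11R from D21 to D29 ranged from -0.087 to 0.015, positive without D29 replicate 2. ICAM3 from D21 to D25 ranged from -0.13 to 0.016, positive without D21 replicate 2 (0.014) or D25 replicate 1. MCAM from D25 to D29 ranged from -0.13 to 0.094, positive without D25 replicate 2 or D29 replicate 1 (0.039). The 22 called pairs in single cells became 23 at a clustering resolution of 0.5, 16 without alignment of the libraries, 29 as a mean over cells, 27 after thinning and 26 without the top Scrublet scores, an alternative chosen after seeing the data. Without alignment, NCAM1 had ratios of 0.98 in podocyte-like and 0.92 in proximal tubule-like cells, against 2.32 and 2.08. Leaving out the doublets that Scrublet called could not be run, since it called none. Depth limits ICAM3 and the VC counts of ICAM1 most.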
